A study of Mus musculus with 21 samples.

Results

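The 10 genes described here are markers of reserve and regenerative intestinal stem cells: Bmi1, Hopx, Tert, Lrig1, Mex3a, Msi1, Sox9, Clu, Ly6a and Anxa1. They were taken by gene symbol from the 37310 genes of the deposited table, and each symbol matched 1 row that was joined to the read counts by its Ensembl identifier. The series holds 21 bulk RNA libraries, 3 for each of 7 groups, made from Lgr5 cells that were sorted from mouse intestinal crypts. Every mouse carried the Lgr5EGFPcre-ERT2 allele, in which the stem cell gene Lgr5 drives a green fluorescent protein and an inducible Cre recombinase. The sorted cells were the brightest few percent of the fluorescent crypt cells. All mice were on purified diets from weaning and were 3 months old. The AIN group received the control diet AIN76A. The NWD1 and NWD2 groups received diets with those names, whose composition the labels leave out. NWD1Ca was NWD1 with calcium at 7 mg per g, and NWD1VitD was NWD1 with vitamin D at 2.3 IU per g, both stated by the labels per g of body weight. AINlowVitD was AIN with vitamin D at 0.11 IU per g, stated in the same way. The AIN_VdrKO group carried a knockout of the vitamin D receptor gene Vdr and received AIN76A; the labels do not say in which cells or at what age Vdr was deleted. Both sexes were used, and AIN_VdrKO held 3 males while AIN held 2 females and 1 male. NWD1Ca held 3 females, and AINlowVitD 2 females and 1 male. NWD1, NWD2 and NWD1VitD each held 1 female and 2 males. Nothing in the labels says that each library came from its own mouse, so p-values measure the spread between these libraries.

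The crypt base holds fast-cycling Lgr5 cells that renew the epithelium. Reserve stem cells are slowly cycling or lineage-committed crypt cells that can restore Lgr5 cells after injury, and they have been followed with Bmi1, Hopx, Tert and Lrig1 reporters. Mex3a marks a slowly cycling fraction of Lgr5 cells, and Msi1 and Sox9 are regulators of crypt stem and progenitor cells. After damage the epithelium can pass through a fetal-like regenerative state, driven by the co-activator YAP and its TEAD partners, in which Ly6a, Clu and Anxa1 are induced. In bulk RNA, a change in the number of cells of one type and a change in RNA per cell cannot be told apart.

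Promoters are shown for 3 genes, Bmi1, Lrig1 and Mex3a, because their RNA rose in the same comparison below, AIN_VdrKO against AIN. Entries of RefSeq, build GRCm38.p6, matched 6 of the 10 genes, with 7 start sites: Bmi1, Mex3a, Hopx, Lrig1, Tert and Anxa1. Each sequence is the 250 bases before the start site, written 5′ to 3′ on the gene's own strand, and capitals mark a match to a searched motif.
Bmi1 promoter, chr2:18676768-18677017, plus strand: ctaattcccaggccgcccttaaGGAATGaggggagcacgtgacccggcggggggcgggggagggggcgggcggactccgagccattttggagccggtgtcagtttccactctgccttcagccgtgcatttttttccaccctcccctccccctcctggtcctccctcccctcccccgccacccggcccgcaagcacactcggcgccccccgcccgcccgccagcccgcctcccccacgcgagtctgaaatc
Lrig1 promoter, chr6:94700146-94700395, minus strand: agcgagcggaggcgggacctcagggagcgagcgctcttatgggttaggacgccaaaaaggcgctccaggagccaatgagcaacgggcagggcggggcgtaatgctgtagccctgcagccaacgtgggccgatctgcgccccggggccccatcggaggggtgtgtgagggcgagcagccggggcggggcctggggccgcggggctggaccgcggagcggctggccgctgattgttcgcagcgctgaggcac
Mex3a promoter, chr3:88531696-88531945, plus strand: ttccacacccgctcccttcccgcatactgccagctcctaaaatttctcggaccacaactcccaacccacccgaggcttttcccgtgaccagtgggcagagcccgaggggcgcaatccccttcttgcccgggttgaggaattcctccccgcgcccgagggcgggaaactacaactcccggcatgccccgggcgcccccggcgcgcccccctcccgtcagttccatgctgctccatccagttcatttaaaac
Both strands were searched for the vitamin D receptor half-sites AGGTCA and GGTTCA, for a direct repeat of the first half-site with a spacer of 3 bases, which contains that half-site, for the TEAD motif GGAATG and for the TCF/LEF motif CTTTGA. Bmi1 held 1 match, GGAATG starting 228 bases before the start site. The Lrig1 and Mex3a windows held no match to these letters. GGAATG occurred in 12.6% of 32851 mouse promoter windows of that length, AGGTCA in 14%, GGTTCA in 8.85%, CTTTGA in 13.8% and the direct repeat in 0.00609%. Among the other 3 genes with an entry, Anxa1 held GGTTCA and GGAATG, both on the opposite strand and starting 241 and 236 bases before the start site, where the matches overlap by 1 base.

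The libraries held 19889795 to 115435120 counts assigned to genes, with AIN_VdrKO 3 the deepest and AINlowVitD 2 the shallowest. They fell into sets along the first principal component, which held 43.9% of the variance. AIN, NWD1 and NWD2 stood on one side, NWD1Ca, NWD1VitD and AINlowVitD on the other, and AIN_VdrKO between them. The share of mitochondrial ribosomal RNA followed the same order, at 0.234% to 0.965%, 1.38% to 2.80% for AIN_VdrKO, and 2.95% to 5.07%. A diet difference that crosses these sets cannot be told apart from the set. The AIN_VdrKO libraries overlapped those of AIN neither on this component (-21.9 to 43.8 against -97.6 to -38.6) nor in that share. A genotype difference cannot be told apart from this displacement either. Lgr5 itself was measured in every library, and Vdr averaged 342 ± 124 CPM (counts scaled by library size, SD, n = 3) in the libraries labelled AIN_VdrKO against 486 ± 226 CPM in AIN. A gene-level count cannot show the deletion of an exon, and Vdr passed no test in that comparison (log2 change -0.56, edgeR's adjusted p = 0.348), so these counts do not check the label.

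All 10 genes passed the filter on low counts, as did 16050 genes in all. Per unit of transcript length, the median level over the 21 libraries was highest for Hopx, an atypical homeodomain protein, at 138 TPM (counts scaled by gene length and library). Sox9, a SOX-family transcription factor of the crypt, followed at 27.3 TPM. Ly6a, which encodes the surface protein Sca-1, had a median of 8.36 TPM, Lrig1, a transmembrane brake on ERBB receptors, 7.23 TPM, and Bmi1, a subunit of Polycomb repressive complex 1, 3.73 TPM. The other genes had medians below 1 TPM. These were 0.894 TPM for Msi1 and 0.684 TPM for Mex3a, both RNA-binding proteins, 0.584 TPM for the telomerase reverse transcriptase Tert, 0.499 TPM for the secreted chaperone Clu and 0.246 TPM for the phospholipid-binding protein Anxa1. Anxa1 rested on as few as 1 read, in NWD1VitD 1, and at most 97 reads, in NWD2 2. Ly6a had 0 reads in NWD1 2, where 3 reads, the limit that a count of 0 allows, would be 0.0526 CPM. It had 64 to 1510 reads in the other 20 libraries.

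**Figure D1:**
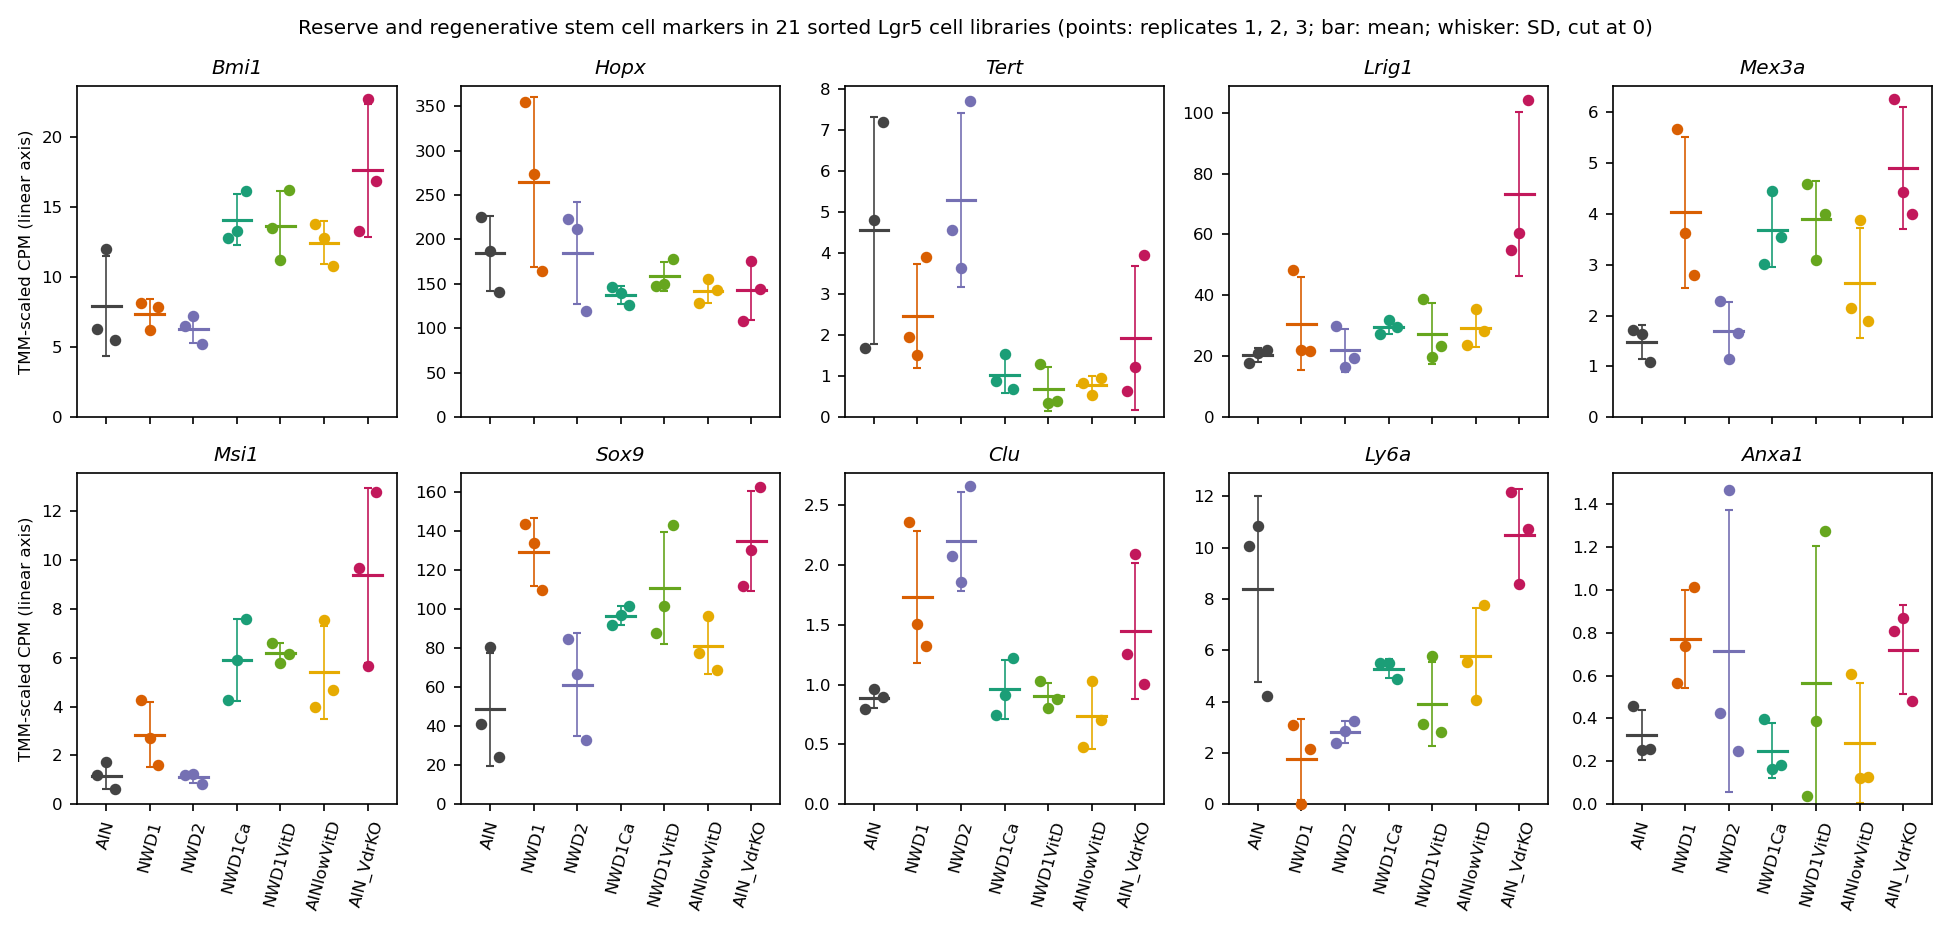
Level of each of the 10 genes in CPM (vertical axis, a scale for each gene) in the 7 groups (horizontal axis), with a point per library, a bar at the group mean and whiskers of 1 SD, cut at 0. The 3 AIN_VdrKO libraries of Lrig1, at 54.9 to 104 CPM, lie above all other libraries, and Ly6a has a library at 0 in NWD1.

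AIN_VdrKO was compared with AIN on the same diet. In this comparison the genotype cannot be told apart from the place of the AIN_VdrKO libraries between the sets. Of the 10 genes, 5 were higher in AIN_VdrKO and 0 were lower, against 12.5% of all genes called in this comparison (7.44% higher, 5.09% lower). The 5 genes were Msi1, Lrig1, Mex3a, Sox9 and Bmi1. The median log2 difference over the 10 genes was 1.17, and over all genes it was -0.01. The groups did not overlap in CPM for 7 of the 10 genes, against 29% of all genes. In TPM the groups of Bmi1, Sox9 and Clu, which are among the 7, did overlap.

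Msi1, which represses translation of Numb and cell cycle inhibitors, was at 9.69, 5.65 and 12.8 CPM in AIN_VdrKO 1, 2 and 3, and at 1.196, 1.71 and 0.622 CPM in AIN 1, 2 and 3. Every AIN_VdrKO library stood above every AIN library. Msi1 rose by 2.92 ± 0.51 on the log2 scale (SE, edgeR's quasi-likelihood test, adjusted p = 0.00114), or 7.56-fold. It passed the threshold in all 16 alternatives of the analysis, with log2 changes of 1.38 to 3.99. An antisense gene, 4930430O22Rik, overlaps Msi1, and the library kit does not mark strand.

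Lrig1 was at 54.9, 60.6 and 104 CPM in AIN_VdrKO and at 17.8, 21.04 and 22.2 CPM in AIN. The lowest AIN_VdrKO library was above the highest of the other 18 libraries, which was NWD1 1 at 48.4 CPM. In the deposited TPM that separation from the other groups was absent, with 13.5 TPM in AIN_VdrKO 1 against 19.2 in NWD1 1 and 16.8 in NWD2 1, while AIN reached 9.91 TPM at most. Lrig1 rose by 1.62 ± 0.37 (log2, SE, edgeR, adjusted p = 0.00682), or 3.07-fold. The Lrig1 gene overlaps Slc25a26 on the opposite strand, so reads of the pair may be mixed.

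Mex3a, an RNA-binding ubiquitin ligase, was at 6.26, 4.44 and 3.996 CPM in AIN_VdrKO and at 1.71, 1.64 and 1.09 CPM in AIN. The groups did not overlap, and the change was 1.71 ± 0.44 (log2, SE, edgeR, adjusted p = 0.0153), or 3.28-fold. Sox9 was at 112, 130 and 163 CPM in AIN_VdrKO and at 41.0, 80.8 and 24.2 CPM in AIN. AIN 2 was the highest AIN library and still lay below AIN_VdrKO 1 in CPM. In TPM the groups overlapped, with AIN up to 37.5 and AIN_VdrKO from 37.1. The Sox9 change was 1.45 ± 0.43 (log2, SE, edgeR, adjusted p = 0.0335).

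Bmi1 was at 13.3, 22.7 and 16.9 CPM in AIN_VdrKO and at 6.30, 12.0 and 5.49 CPM in AIN. Its groups did not overlap in CPM, although AIN 2 came close to AIN_VdrKO 1. In TPM they overlapped, with AIN up to 5.79 and AIN_VdrKO from 4.58. Bmi1 rose by 1.203 ± 0.34 (log2, SE, edgeR, adjusted p = 0.0251). Outside AIN_VdrKO, 5 of 18 libraries were above its lowest Bmi1 level, all of them in NWD1Ca, NWD1VitD or AINlowVitD.

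The other 5 genes passed no test here. The log2 difference was 0.66 for Clu (adjusted p = 0.369), 0.68 for Ly6a (adjusted p = 0.641) and 1.14 for Anxa1 (adjusted p = 0.477), all by edgeR. It was -0.58 for Hopx (adjusted p = 0.257) and -1.22 for Tert (adjusted p = 0.259). Clu and Anxa1 had groups that did not overlap in CPM. Their means were 1.45 ± 0.568 and 0.720 ± 0.207 CPM in AIN_VdrKO against 0.886 ± 0.0828 and 0.323 ± 0.117 CPM in AIN (SD, n = 3). In TPM the Clu groups overlapped, with AIN up to 0.654 and AIN_VdrKO from 0.499. The 95% intervals of the log2 difference, -0.32 to 1.63 for Clu and -0.94 to 3.22 for Anxa1, both include 0. That of Clu ends below the changes of Msi1 and Mex3a, and that of Anxa1 extends above the change of every called gene.

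Calls other than that of Msi1 depended on AIN 3, the single male AIN library. On the first principal component AIN 3 also stood farther from AIN_VdrKO, at -97.6 against -38.6 and -40.2 for AIN 1 and AIN 2. Its sex and this place cannot be told apart. Without it Msi1 alone passed, and the log2 changes were 0.85 for Bmi1 (edgeR, adjusted p = 0.204), 1.53 for Lrig1 (0.0514), 1.38 for Mex3a (0.124) and 0.81 for Sox9 (0.274). Sox9 also missed the threshold without AIN 1 (1.43, adjusted p = 0.0606), without AIN_VdrKO 2 (1.47, 0.0533) or without AIN_VdrKO 3 (1.29, 0.082), and Bmi1 without AIN_VdrKO 2 (0.98, 0.0861). With only the 2 groups in the fit, Msi1 was the 1 gene called.

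**Figure D2:**
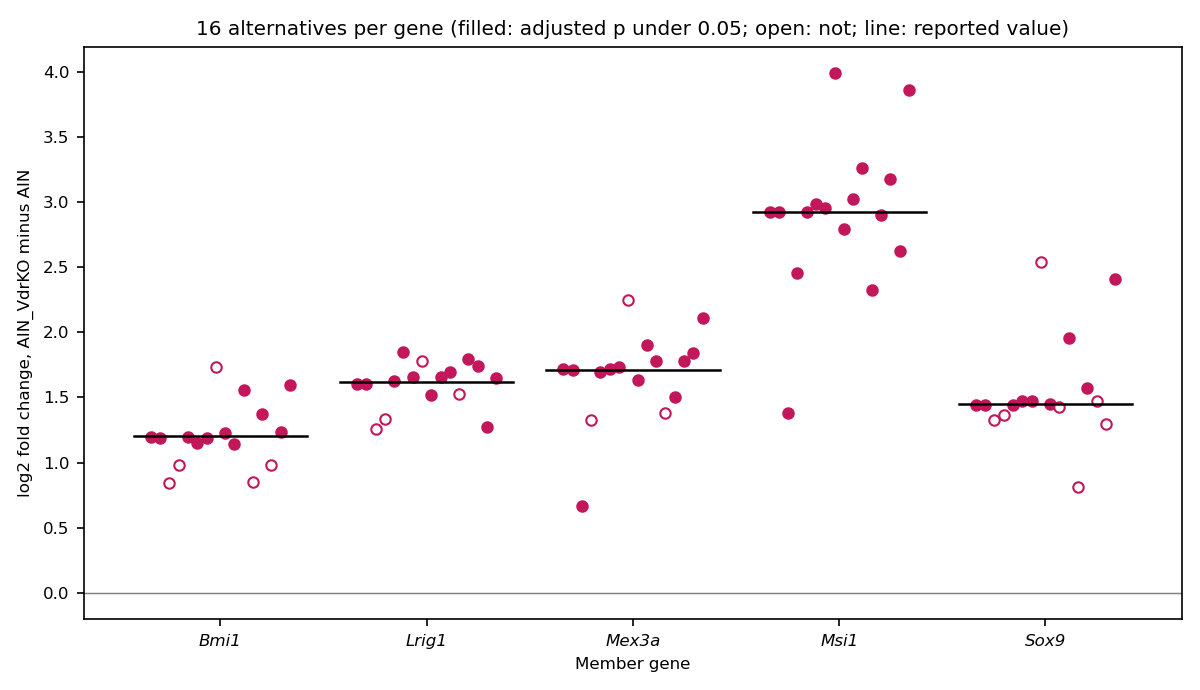
Log2 change of AIN_VdrKO against AIN (vertical axis) for Bmi1, Lrig1, Mex3a, Msi1 and Sox9 (horizontal axis). A line marks the reported value and a point each of 16 alternatives, filled where the adjusted p is under 0.05. Msi1 is filled throughout, from 1.38 to 3.99, and without AIN replicate 3 the other 4 genes are open.

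Genes that work with these markers were counted from lists, beside 7.44% of all genes higher and 5.09% lower. In the Musashi and MEX3 list with Numb, 2 of 7 measured genes were higher and 0 lower in AIN_VdrKO: Mex3c by 1.28 ± 0.31 (log2, SE, adjusted p = 0.0111) and Msi2 by 0.99 ± 0.29 (adjusted p = 0.0286), and Numb itself passed no test. On log2(TPM + 1), 0 of the 7 passed and the list's median was 0.21, against 1.28 in the reported fit. In Polycomb repressive complex 1, to which BMI1 belongs, 2 of 20 were higher and 1 lower. Phc2 rose from a mean of 10.4 to 48.0 CPM and Yaf2 from 6.96 to 22.9 CPM, while the chromobox gene Cbx6 fell from 15.2 to 0.430 CPM. Of 11 ERBB receptors, ligands and LRIG genes, 1 passed, the Lrig1 paralogue Lrig3, higher by 1.08 ± 0.32 (adjusted p = 0.031). Of 15 telomerase and shelterin genes, 1 was higher and 1 lower (Naf1 and Pot1a), and Tert was not called.

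In the YAP, regenerative and fetal-like list, 5 of 30 genes were higher and 2 lower. Yap1, the co-activator, rose from 14.7 to 31.9 CPM and its DNA-binding partner Tead1 from 0.792 to 4.99 CPM. Another row with the symbol Tead1 had 0 counts in all libraries of both groups. The Ly6a relatives moved apart: Ly6d was at 2.66 CPM against 0.168 CPM in AIN, and Ly6e fell from 694 to 124 CPM. Ptger4 and Basp1 were higher and Anxa5 was lower. The list had a median log2 change of 0.14, with calls in both directions, and of -0.02 on log2(TPM + 1). The crypt base list had 4 of 14 genes higher (Slc12a2, Znrf3, Rgmb and Sp5) and a median of 0.86, but Lgr5 was not called (0.21, adjusted p = 0.827).

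Markers of other crypt cells moved with this comparison. Summed Paneth markers were at 8323 to 35720 CPM in AIN_VdrKO and 4616 to 6564 CPM in AIN, and 1 of 9 (Ang4) was called higher. Defa24 made up much of the sum, with means of 10633 and 2406 CPM. Defa22 was lower in AIN_VdrKO (log2 change -2.23, edgeR, adjusted p = 0.146). Summed enterocyte markers were at 9508 to 17878 CPM against 19665 to 25468 CPM, and 1 of 20 (Vil1) was called lower. Paneth cells also express Sox9. Of 11 goblet markers 2 were called higher, Retnlb (log2 change 5.66, adjusted p = 0.000105) and Clca1 (1.94, adjusted p = 0.00315), while the summed list was at 8262 to 18361 CPM against 15721 to 32347 CPM. Of 21 enteroendocrine markers 1 was called higher, Insm1 (2.11, adjusted p = 0.00612). The summed enteroendocrine list overlapped between the groups, at 1534 to 3111 CPM in AIN_VdrKO against 2519 to 2676 CPM in AIN. Summed tuft markers also overlapped, at 428 to 800 CPM against 683 to 1397 CPM. Of 13 tuft markers, 2 had an unadjusted p under 0.05 by edgeR.

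Markers of cells outside the epithelium were low in both groups. Summed T, B, plasma and myeloid markers were at 15.1 to 29.0 CPM in AIN_VdrKO and 18.8 to 36.2 CPM in AIN, with 0 of 9 tested genes called by edgeR or DESeq2 and 0 at an unadjusted p under 0.05. Summed fibroblast and smooth muscle markers were at 11.9 to 13.9 against 12.4 to 19.6 CPM, and 1 of 4 tested genes, Acta2, was called higher (3.08, adjusted p = 0.0312). Summed endothelial markers were at 9.33 to 19.6 against 10.6 to 15.95 CPM, and 1 of 6 tested genes, Tek, was called lower (-2.21, adjusted p = 0.0451). The endothelial marker Cdh5 had 0 counts in both groups, Cldn5 in AIN_VdrKO and Kdr in AIN. The part of these markers in the changes of the 5 genes was not tested.

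In NWD1 against AIN, 0 of the 10 genes were called, against 0.766% of all genes. At an unadjusted p under 0.05 there were 5 of them and 2436 of all genes. For 5 of the 10 the groups were without overlap, against 16.9% of all genes. The 5 were Sox9, Mex3a, Clu, Ly6a and Anxa1. Anxa1 was at 0.563 to 1.01 CPM in NWD1 (38 to 42 reads) and 0.254 to 0.459 CPM in AIN (12 to 24 reads). This comparison shares its AIN libraries with the one above. Spike-in reads made up 24.7% of NWD1 1 and 20.4% of NWD1 2, against at most 6.48% in any other library. Sox9 was at 144, 134 and 110 CPM in NWD1, all above the 3 AIN libraries, a log2 difference of 1.39 ± 0.40 (SE, edgeR, adjusted p = 0.0864). Mex3a was at 5.68, 3.63 and 2.80 CPM in NWD1, also above every AIN library, with a log2 difference of 1.44 ± 0.41 (edgeR, adjusted p = 0.0864). Msi1 was at 4.26, 2.72 and 1.59 CPM and overlapped AIN, with a difference of 1.22 (adjusted p = 0.205). Clu was at 2.36, 1.51 and 1.33 CPM in NWD1 against 0.797, 0.961 and 0.900 CPM in AIN, a log2 difference of 0.94 (adjusted p = 0.289).

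Summed levels of other markers stood apart in this comparison. Summed enterocyte markers were at 2567 to 6445 CPM in NWD1 and 19665 to 25468 CPM in AIN, without overlap, and 3 of 20 were called lower by edgeR (Sis, Khk and Mogat2), or 11 by DESeq2. Summed crypt base Lgr5 markers were at 7263 to 10183 CPM against 2494 to 4640 CPM, also without overlap, with 0 of 14 called by edgeR, 7 at an unadjusted p under 0.05 and 4 higher by DESeq2. Summed endothelial markers were at 22.5 to 28.4 CPM against 10.6 to 15.95 CPM, with 0 of 6 tested genes called by edgeR, 1 at an unadjusted p under 0.05 and 1 higher by DESeq2. The part of these markers in the Sox9, Mex3a, Msi1 and Clu differences was not tested.

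Ly6a went the other way. Its level was 10.1, 10.9 and 4.22 CPM in AIN and 3.08, 0 and 2.17 CPM in NWD1. The library at 0, NWD1 2, also had the fewest genes detected of all libraries, at 17764. No NWD1 library reached the lowest AIN library, and the log2 difference was -2.06 ± 0.80 (SE, edgeR, adjusted p = 0.213). Ly6a is one of a family of similar genes, so reads may be shared among copies. Beside it, 2 of 24 interferon response genes were lower in NWD1 (Ifit3 and Ifi44), and the summed interferon list was at 297 to 536 CPM in NWD1 and 813 to 890 CPM in AIN; its part in the Ly6a levels was not tested. The Sox9 difference ranged with the library left out, from 0.85 without AIN 3 (edgeR, adjusted p = 0.212), the AIN library with the lowest Sox9, to 1.93 without AIN 2 (adjusted p = 0.0301), the one with the highest. The Msi1 difference was 0.68 without AIN 3 (adjusted p = 0.455).

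In NWD2 against AIN, 0 of 10 genes were called, as were 0% of all genes, with 1 gene and 1099 of all genes at an unadjusted p under 0.05. For 2 of the 10 the groups were apart, Clu and Ly6a, against 10.1% of all genes. The gene with the low p was Clu, at 2.07, 1.86 and 2.66 CPM in NWD2, above every AIN library (log2 difference 1.29, edgeR, adjusted p = 0.718). In NWD2 against NWD1, 0 of 10 were called, against 0.00623% of all genes. Mex3a, Msi1 and Sox9 had unadjusted p-values under 0.05, as did 1717 of all genes, and for these 3 of the 10 genes, against 8.72% of all genes, the groups did not overlap, with NWD2 lower. The log2 differences were -1.25 for Mex3a (adjusted p = 0.194), -1.38 for Msi1 (0.199) and -1.08 for Sox9 (0.253). Msi1 passed without NWD1 3 (-1.71, edgeR, adjusted p = 0.0497).

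Among NWD1Ca, NWD1VitD and AINlowVitD, no gene of the 10 was called in any of the 3 pairings, as were 0% of all genes in each. No gene of the 10 had an unadjusted p under 0.05 either, while 372 of all genes did for NWD1VitD against NWD1Ca, 209 for NWD1Ca against AINlowVitD and 467 for NWD1VitD against AINlowVitD. The 95% interval of the log2 difference between added vitamin D and added calcium was -0.72 to 0.73 for Bmi1, -0.99 to 1.01 for Msi1 and -1.15 to 0.42 for Lrig1. Hopx was the 1 gene of the 10 whose NWD1VitD and NWD1Ca libraries did not overlap, against 8.56% of all genes. Its means were 158 and 137 CPM, and the log2 difference was 0.02 in the fit, which holds a term for sex. All NWD1Ca libraries were female. Intervals were wider for the low genes, at -2.32 to 1.05 for Tert and -1.01 to 3.40 for Anxa1.

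In comparisons across the library sets, diet cannot be told apart from the set. In AINlowVitD against AIN, 2 of the 10 genes were called, 1 higher and 1 lower, against 31.3% of all genes (15.1% higher, 16.3% lower). For 4 of the 10 the groups were without overlap, against 46.9% of all genes. Msi1 was at 3.97, 7.57 and 4.70 CPM in AINlowVitD, above every AIN library, and rose by 2.17 ± 0.44 (log2, SE, edgeR, adjusted p = 0.00159). The call was lost with limma on TPM, where the change was 0.40 on log2(TPM + 1) (adjusted p = 0.192) and 0.92 on log2(TPM + 0.1) (adjusted p = 0.0801). Tert was at 0.831, 0.545 and 0.958 CPM in AINlowVitD against 1.67, 4.80 and 7.18 CPM in AIN, and fell by 2.52 ± 0.70 (log2, SE, edgeR, adjusted p = 0.0109). The AINlowVitD values rest on 9 to 30 reads. Without AIN 3 the Tert change was -1.93 (adjusted p = 0.0758), and without AIN 2 the calls rose to 4, adding Bmi1 (1.08, adjusted p = 0.0111) and Sox9 (1.32, adjusted p = 0.0105).

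Of 15 telomerase and shelterin genes, 3 were higher and 6 lower in AINlowVitD than in AIN, where 15.1% of all genes were higher and 16.3% lower. The telomere end-binding gene Pot1a was lower by a log2 change of -1.25 ± 0.24 (adjusted p = 0.00119) and Terf1 by -0.90 (adjusted p = 0.0158), while the telomerase assembly factor Naf1 was higher by 2.06 (adjusted p = 0.00332). In Polycomb repressive complex 1, 3 of 20 genes were higher and 3 lower, near those shares of all genes. On log2(TPM + 1) these splits became 1 higher and 9 lower for telomerase and shelterin, and 0 higher and 13 lower for the Polycomb list.

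In NWD1Ca against NWD1, 1 of the 10 genes was called, higher, against 30.5% of all genes (15.6% higher, 14.9% lower). For 7 of the 10 there was no overlap, against 50.6% of all genes. Bmi1 was at 12.8, 13.3 and 16.1 CPM in NWD1Ca and at 8.13, 6.202 and 7.84 CPM in NWD1, without overlap, a log2 change of 0.88 ± 0.33 (SE, edgeR, adjusted p = 0.0487). It missed the threshold when NWD1 2, NWD1 3 or any of the 3 NWD1Ca libraries was left out (0.76 to 0.94, adjusted p = 0.0757 to 0.145). Without NWD1 1 the calls were 3, adding Msi1 (1.44, adjusted p = 0.032) and Ly6a (2.24, adjusted p = 0.0448). In NWD1VitD against NWD1, 3 were called, 2 higher and 1 lower, against 40.5% of all genes (19.9% higher, 20.6% lower). The groups did not overlap for 4 of the 10, against 48.7% of all genes. Bmi1 was at 13.5, 11.2 and 16.2 CPM and rose by 0.89 ± 0.30 (log2, SE, edgeR, adjusted p = 0.0237), and Msi1 at 6.6004, 5.79 and 6.16 CPM rose by 1.12 ± 0.42 (adjusted p = 0.0417).

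Tert was at 1.304, 0.351 and 0.396 CPM in NWD1VitD against 1.94, 1.52 and 3.91 CPM in NWD1, and fell by 1.85 ± 0.70 (log2, SE, edgeR, adjusted p = 0.0419). The groups did not overlap, and the NWD1VitD values rest on 9 to 33 reads. The 3 calls fell to 0 or 1 when NWD1 2, NWD1 3 or any 1 NWD1VitD library was left out. The direction of Bmi1 and Msi1 across the sets turned with the scaling: on log2(TPM + 1) the Bmi1 differences were -0.35 in NWD1Ca and -0.58 in NWD1VitD against NWD1. Those of Msi1 were -0.066 and -0.20 there. On that scale the median of all genes was displaced by -1.15 and -1.38 from the reported fit. The differences of both genes were less negative than that, but a change relative to the median was not tested. Mean TPM in NWD1Ca, NWD1VitD and NWD1 was 3.89, 3.11 and 5.16 for Bmi1, and 1.12, 0.976 and 1.29 for Msi1.

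**Figure D3:**
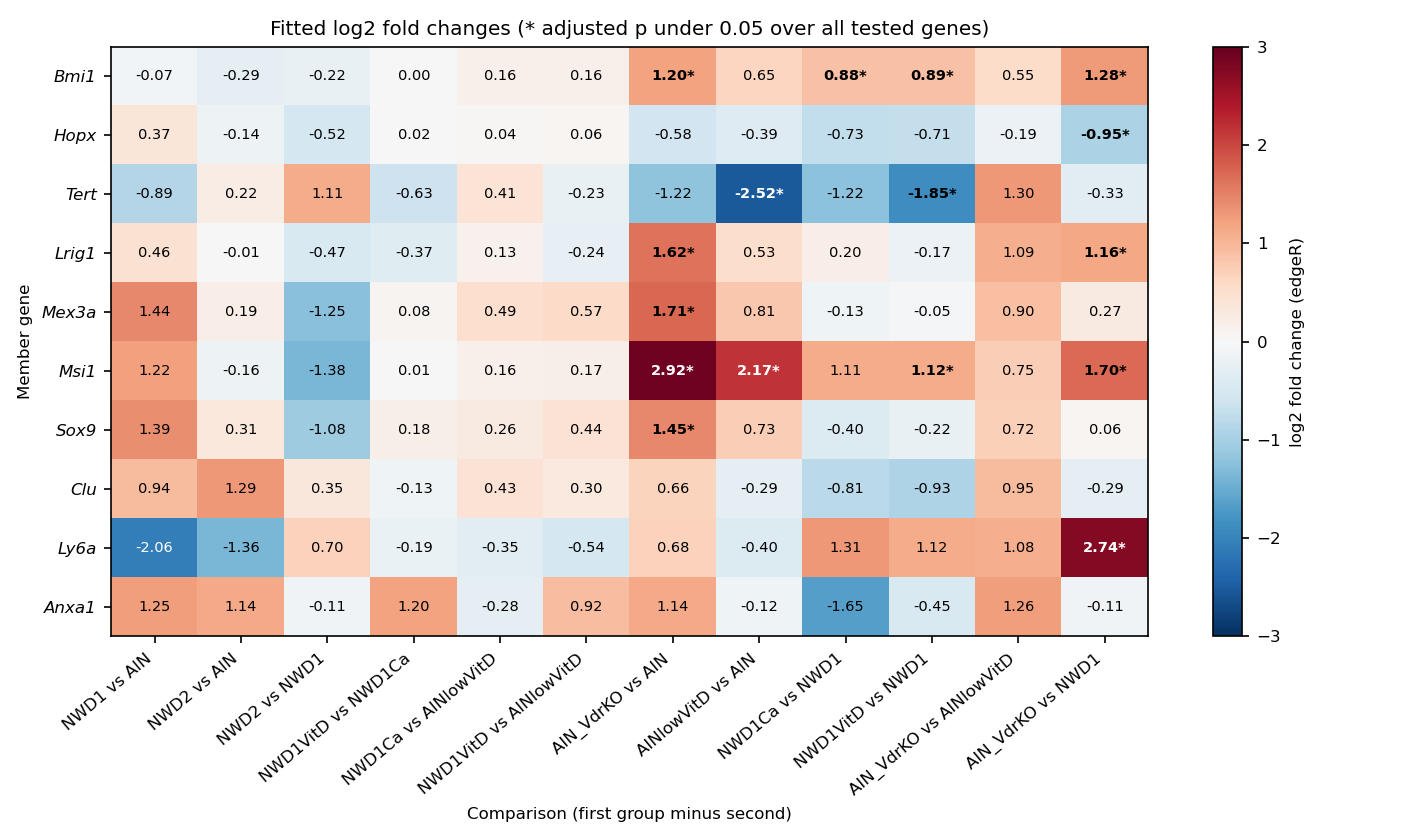
Log2 change of each of the 10 genes (rows) in 12 comparisons (columns), with an asterisk where edgeR's adjusted p is under 0.05. Calls stand only in columns that involve AIN_VdrKO or cross the library sets, and the AIN_VdrKO against AIN column holds 5.

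AIN_VdrKO was also set against AINlowVitD and NWD1, 2 comparisons added after the data had been seen. Against AINlowVitD, 0 of the 10 genes were called, against 3.07% of all genes (0.685% higher, 2.38% lower), and for 4 the groups did not overlap, against 28.9% of all genes. Lrig1 had the smallest p, with a log2 difference of 1.09 ± 0.37 (edgeR, adjusted p = 0.11), and groups that did not overlap. Leaving out AIN_VdrKO 1 brought it past the threshold (1.27, adjusted p = 0.0417). Against NWD1, 4 were higher and 1 lower, against 19% of all genes (11.6% higher, 7.46% lower), and for 4 the groups did not overlap, against 26.7% of all genes. Bmi1 (log2 change 1.28, adjusted p = 0.00702), Msi1 (1.70, 0.00938), Lrig1 (1.16, 0.0197) and Ly6a (2.74, 0.0224) were higher in AIN_VdrKO. Ly6a was at 12.2, 8.57 and 10.7 CPM in AIN_VdrKO, above every NWD1 library, and Hopx was lower (-0.95, adjusted p = 0.0256).

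Of these calls, that of Ly6a was lost without NWD1 3 (2.76, edgeR, adjusted p = 0.0523) or AIN_VdrKO 1 (2.63, 0.0505). That of Lrig1 was lost without NWD1 2, NWD1 3 or AIN_VdrKO 3, and that of Hopx without NWD1 1, NWD1 2, AIN_VdrKO 1 or AIN_VdrKO 3. Calls of Bmi1 and Msi1 stood without each single library.

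The order of the group means in CPM, from lowest to highest, placed AIN_VdrKO last for Bmi1, Lrig1, Mex3a, Msi1, Sox9 and Ly6a. In TPM the NWD1 mean was above that of AIN_VdrKO for Sox9 (85.6 against 60.2) and Mex3a (1.85 against 1.45). In CPM, AIN_VdrKO stood apart from its neighbour in that order for Lrig1 alone, and in TPM the Lrig1 libraries overlapped those of NWD1. For the other 5 genes its libraries overlapped those of the group ranked next. For Tert the order ran from NWD1VitD through AINlowVitD, NWD1Ca, AIN_VdrKO, NWD1 and AIN to NWD2, and each neighbouring pair overlapped. NWD1 had the highest mean of Hopx, at 355, 274 and 164 CPM, and a wide spread. Clu was highest in NWD2 and lowest in AINlowVitD, again with overlap between neighbours.

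Genes whose log2 CPM followed a member most closely over the 21 libraries were searched among 9375 genes. As a description, the closest to Lrig1 were Taf4b (r = 0.922) and Fzd7, a Wnt receptor (r = 0.908), and after removal of the group means the values were 0.855 and 0.873. The closest to Msi1 was Pla2g12a (r = 0.969, or 0.802 after removal), to Bmi1 Fam134a (0.942, 0.802), to Sox9 Marcksl1 (0.893, 0.873) and to Mex3a Gtf2i (0.905, 0.821). Tert was closest to Ascc2 (0.935, 0.862) and Ly6a to Parp3 (0.870, 0.802). The points share library sets and sequencing depth.

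Among the 10 genes, deviations from the group means over the 21 libraries were most alike for Bmi1 and Sox9 (r = 0.72), Msi1 and Sox9 (0.66), Hopx and Sox9 (0.63) and Mex3a and Msi1 (0.58). Lrig1 and Anxa1 moved apart (r = -0.61). Over the libraries with group means kept, Tert and Msi1 ran opposite (r = -0.72), but within groups the value was -0.20.

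**Figure D4:**
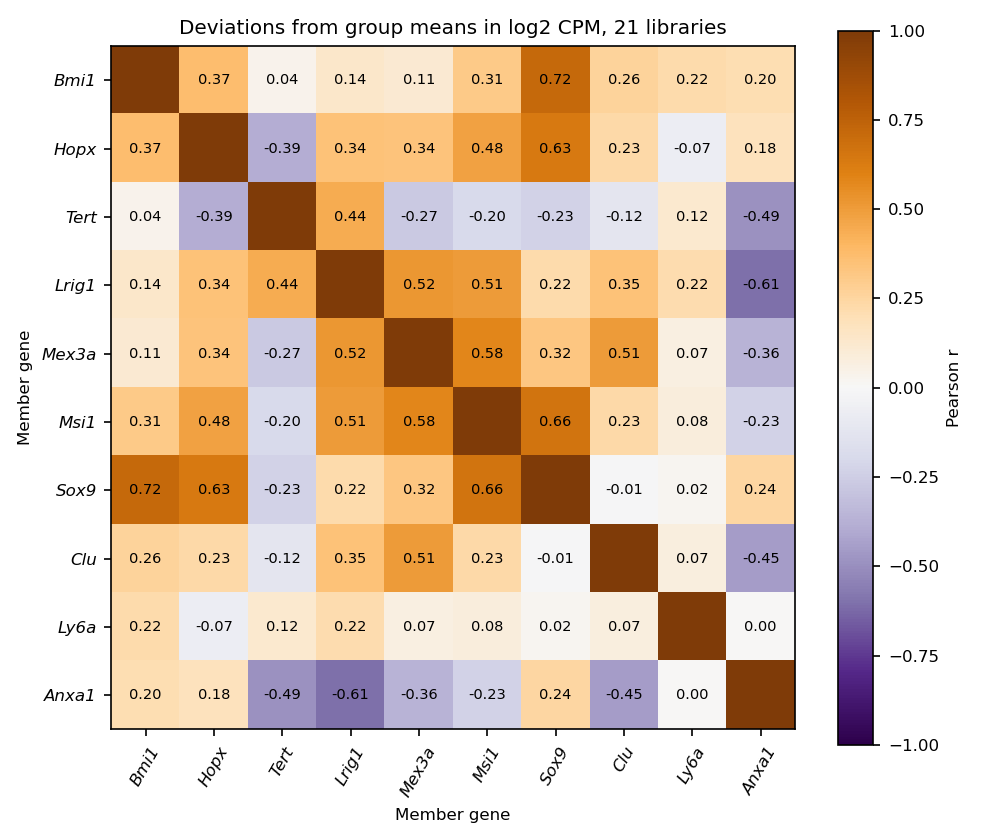
Pearson r between pairs of the 10 genes, computed on log2 CPM after the group mean was removed from each library (rows and columns are genes, colour is r, 21 libraries). Bmi1, Sox9, Msi1, Mex3a and Hopx form mostly positive pairs, up to 0.72, and Lrig1 with Anxa1 is the most negative, at -0.61.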

How the data were processed

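Bulk RNA sequencing measured sorted Lgr5 cells in 21 libraries of 7 groups. The authors deposited whole-number read counts for 37310 genes and 92 spike-in RNAs, and TPM values for the same genes, which rescale those counts per length. The genome build was mm9 and the tools were edgeR, HTSeq 0.6.1 and STAR 2.4.2a, per the submitters' processing notes; settings and annotation are not given in the sources read. SMART-Seq v4 cDNA and Nextera XT libraries, per the labels' protocols, do not mark strand.

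All 21 libraries entered 1 fit of edgeR 4.0.16 in R 4.3.3 (quasi-likelihood F test, two-sided) with a term for group and for sex, TMM scaling, the filterByExpr low-count filter, and Benjamini-Hochberg adjustment over 16050 genes with a threshold of 0.05. The scripts were tested on simulated data. CPM used TMM library sizes. Spike-in rows were left out of the fit. Libraries were not paired by replicate number in the fit. In no comparison did all 3 same-numbered pairs correlate over 0.1, but single pairs reached 0.409 (NWD1 3 with AIN 3). With 3 pairs a comparison, this check cannot show that pairing was absent. Alternatives were RLE scaling, DESeq2 1.42.0, limma 3.58.1 on log2(TPM + 1) and log2(TPM + 0.1), no filter, no sex term, a replicate block, only the groups compared, a length correction and leaving out each library. 2 further alternatives, without 2 NWD1 libraries high in spike-ins and without 3 libraries apart on the first principal component, and 2 of 12 comparisons were added after seeing the data. The 10 genes and all lists were chosen with earlier results of these data known. All 10 genes are named. From the other lists some of the called genes are named, with a few that were not called. The 1 or 2 genes closest by r are given for some of the 10 genes. 0 sample columns were left unmapped. Overlapping genes were read from the GENCODE annotation of another build, by name only.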

Additional observations from a re-analysis of the deposited data

How the results depend on the processing

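Calls rest on 3 libraries a group, and low genes (Tert, Clu, Anxa1) on few reads. Over 32 pairs of gene and comparison, 522 values under alternatives were compared with the reported ones: 397 were alike, 70 lost the threshold, 43 gained it and 12 changed direction. The 12 came from log2(TPM + 1) and log2(TPM + 0.1), in that order: Bmi1 in AINlowVitD against AIN -0.34 and -0.43, Mex3a there -0.10 and -0.30, Bmi1 in NWD1Ca against NWD1 -0.35 and -0.41, Msi1 there -0.066 and -0.12, Bmi1 in NWD1VitD against NWD1 -0.58 and -0.70, and Msi1 there -0.20 and -0.34. The median of all genes was displaced on log2(TPM + 1) by -0.96, -1.15 and -1.38 in these 3 comparisons, by 0.40 in NWD1 against AIN and by -0.23 in AIN_VdrKO against AIN.

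Members called changed as follows, and the cause was not tested. NWD1 against AIN, reported 0: 2 by DESeq2, 3 on log2(TPM + 1), 2 on log2(TPM + 0.1), 2 without the filter, 2 without the sex term, 0 to 1 leaving out a library. NWD2 against NWD1, reported 0: 2 by DESeq2, 1 without the filter, 0 to 1 leaving out a library. AIN_VdrKO against AIN, reported 5: 2 on log2(TPM + 1), 1 on log2(TPM + 0.1), 1 with only the groups compared, 1 to 5 leaving out a library. AINlowVitD against AIN, reported 2: 4 on log2(TPM + 1), 4 without the 3 libraries apart on the first principal component, 1 to 4 leaving out a library. NWD1Ca against NWD1, reported 1: 2 by DESeq2, 6 and 6 on the TPM scales, 3 without the sex term, 2 with only the groups compared, 2 without those 3 libraries, 0 to 3 leaving out a library. NWD1VitD against NWD1, reported 3: 7 and 7 on the TPM scales, 1 without the filter, 0 with only the groups compared, 0 to 4 leaving out a library. AIN_VdrKO against AINlowVitD, reported 0: 7 and 7 on the TPM scales, 1 without the filter, 1 without the sex term, 0 to 1 leaving out a library. AIN_VdrKO against NWD1, reported 5: 2 on log2(TPM + 0.1), 0 with only the groups compared, 3 to 5 leaving out a library. The other 4 comparisons stayed at 0.

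Under the replicate block the number of members called was the same in each comparison (5 in AIN_VdrKO against AIN); in NWD1VitD against NWD1, Tert left (-1.66, adjusted p = 0.0519) and Hopx entered (-0.67, adjusted p = 0.0455). Over all genes, counts that differed by over 1.5 times from the reported ones were as follows. NWD1 against AIN, 123: 791 by DESeq2, 232 on log2(TPM + 1), 969 without the filter, 390 without the sex term, 13 with only the groups compared. NWD2 against AIN, 0: 4 by DESeq2, 157 without the filter. NWD2 against NWD1, 1: 344, 842 by those 2 choices and 27 on log2(TPM + 1). The 3 pairings within the second set, 0: 6, 6 and 8 by DESeq2 and 117, 90 and 68 without the filter. AIN_VdrKO against AIN, 2011: 383 with only the groups compared, 1336 on log2(TPM + 0.1), 3701 without the 3 libraries. AIN_VdrKO against AINlowVitD, 492: 1174 by DESeq2, 5155 on log2(TPM + 1), 1448 without the filter, 1315 without the sex term, 782 with the block, 4 with only the groups compared. AIN_VdrKO against NWD1, 3052: 656 with only the groups compared. On log2(TPM + 1), 733 genes were higher and 7368 lower in AINlowVitD against AIN, 827 and 8265 in NWD1Ca against NWD1, and 699 and 9678 in NWD1VitD against NWD1.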
